A study of Mus musculus with 6 samples.

Results

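Cluster 6 is 1 of the 11 clusters that the submitters deposited for CD8 T cells from MB49 tumours, and it was taken exactly as their cluster number gives it. It held 2034 of 26698 cells, or 7.62%, with 1134 cells from male mice and 900 from female mice. MB49 is a mouse urothelial carcinoma line, injected under the skin of wild-type C57BL/6 hosts of either sex that the labels give as 6 to 8 weeks old. On day 10 the tumours were dissociated, the sort kept live CD3+ CD8+ cells that lacked CD4, and each library was prepared with the 10x Genomics 3' single-cell kit. All groups share the host strain, the tumour line and the sort, and none is free of tumour or drawn from another tissue. There were 3 male and 3 female libraries, numbered 1, 3 and 4 for males and 2, 5 and 6 for females. The numbers could not be tied to the labelled biological replicates, so p-values measure the spread between libraries.

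Exhausted CD8 T cells arise under lasting antigen contact in tumours and carry inhibitory receptors such as PD-1 and TIM-3 while they still make granzymes. Messenger RNAs differ in where they are read: those that start with a signal peptide or code for membrane proteins are bound to the endoplasmic reticulum (ER) through their ribosomes, most others are read free in the cytosol, and 13 protein-coding messages are made and kept inside mitochondria. A high mitochondrial share per droplet is a usual criterion for filtering out damaged cells, but damage itself was not measured here.

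Cluster 6 cells were small libraries rich in mitochondrial RNA. Their median was 1742 unique molecular identifiers (UMIs, 1 per captured RNA molecule) and 741 genes per cell, and the library medians ran from 1540.5 to 1970 UMIs. The median mitochondrial share was 30.03% of UMIs, with library medians of 27.76% to 32.72%, quartiles over cells of 23.5% and 37.2%, and a full range of 0.118% to 76.4%. Of the 2383 cells in the whole data set with at least 20% mitochondrial UMIs, 1696 were in cluster 6 and 577 in cluster 10. Cluster 6 summed to 547322 to 1134099 UMIs per library. In all, 84 barcodes occurred in more than 1 library, 11 cluster 6 cells carried such a barcode, and 0 barcodes were shared between the cluster 6 cells of different libraries.

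**Figure D1:**
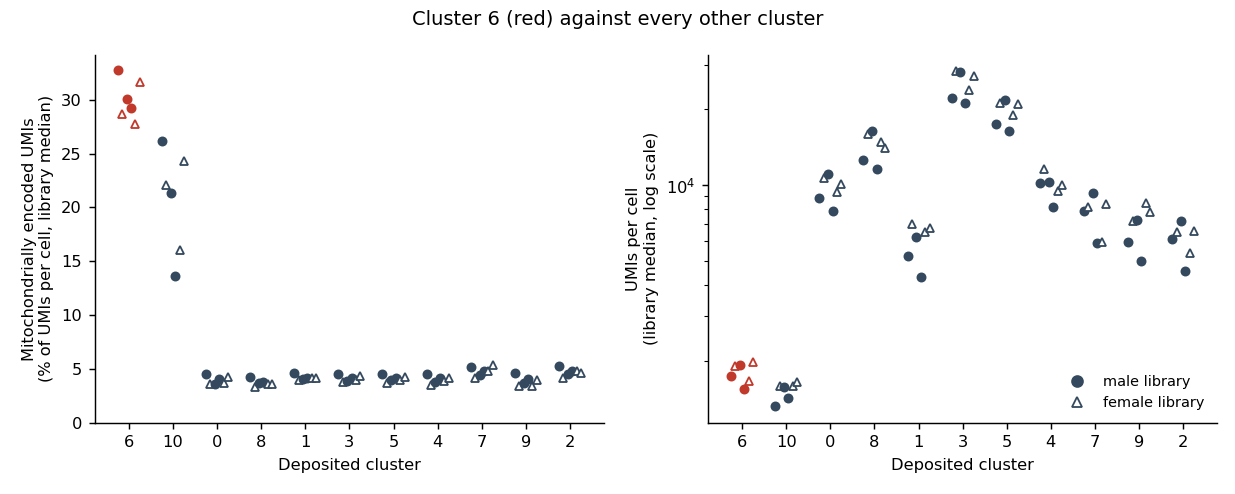
Median mitochondrial share (left, % of UMIs per cell) and median UMIs per cell (right, log scale) of each deposited cluster, with cluster 6 in red at the left; each point is 1 library, filled circles for male and open triangles for female. Cluster 6 stood at 27.76% to 32.72% and 1540.5 to 1970 UMIs, and only cluster 10 came near it on both measures.

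Of the markers given with the cluster, Cd8a, the CD8 alpha chain, had a lowest, median and highest level over the 6 libraries of 1829, 2313 and 2678 CPM (UMIs scaled to an equal total per library) in cluster 6, against 599, 724 and 802 CPM in clusters 0, 1, 3, 4, 5, 7, 8 and 9 together, called the 8 clusters from here on. Pdcd1, which encodes PD-1, had 1202, 1469 and 1686 CPM in cluster 6, against 277, 365 and 453 CPM in the 8 clusters. Havcr2, which encodes TIM-3, had 1106, 1382 and 1576 CPM in cluster 6, against 234, 305 and 381 CPM in the 8 clusters. No library of cluster 6 overlapped the 8 clusters for these 3 genes, but the share of all genes without overlap is not given here. All 3 were higher beyond the 2-fold line used below, as were 22.9% of 6465 genes. The markers came with the label, and the clusters were made from the same expression. These levels therefore describe the label and do not test it. Here and below, CPM leaves the mitochondrial genes out of the table and the totals unless stated otherwise. None of the exhaustion markers was among the 10 genes with the largest fold in cluster 6, Tox was not higher beyond the 2-fold line used below (54.1 CPM against 39.5 CPM as medians), and the median cluster 6 cell of a library held 0.176 to 0.248 of the UMIs of that library's median cell. The cluster is therefore called by its number. Its cells were sorted as live, and the word damaged in its label could not be checked beyond UMIs, genes and the mitochondrial share.

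Per cell, cluster 6 held about as many mitochondrial UMIs as the 8 clusters and far fewer of every class of nuclear gene. The mean was 693 ± 106 mitochondrial UMIs per cell in cluster 6, against 598 ± 67.3 in the 8 clusters (SD, n = 6 libraries), and the ratio within libraries was 1.16 ± 0.14 with a range of 0.955 to 1.32. As CPM of all UMIs, all 13 mitochondrially encoded protein genes were higher in cluster 6 in 6 of 6 libraries, by 5.52-fold for mt-Nd1, a complex I subunit, to 8.06-fold for mt-Nd6, another. The given marker mt-Co1, the main subunit of cytochrome c oxidase, had 46063 ± 4851 CPM of all UMIs in cluster 6, against 7782 ± 633 in the 8 clusters. Cluster 10 came near cluster 6, at 40913 ± 9304 CPM, so a high level of mt-Co1 was not particular to cluster 6. The 6 genes with the most UMIs in cluster 6 included 5 mitochondrial ones, led by mt-Atp6 at 7.91% and mt-Co3 at 6.20% of all UMIs. Malat1, a nuclear non-coding RNA, followed at 1.57%, and Gzmb, the main cytotoxic granzyme, at 1.36%.

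The 13 mitochondrial messages did not keep the same proportions. As a share of mitochondrial UMIs, mt-Nd1 made up 3.41 ± 0.30% in cluster 6 and 4.33 ± 0.26% in the 8 clusters, lower in 6 of 6 libraries. mt-Co1 made up 15.1 ± 1.15% in cluster 6 and 17.9 ± 0.90% in the 8 clusters, also lower in each library. mt-Co3, a cytochrome c oxidase subunit, made up 20 ± 0.64% in cluster 6 and 18.2 ± 0.59% in the 8 clusters, higher in each library. mt-Nd6, the 1 mitochondrial protein gene on the light strand, was the rarest, at 0.0647 ± 0.0098% in cluster 6 and 0.0462 ± 0.0062% in the 8 clusters, again higher in each.

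The nuclear genes were far from evenly affected, and a feature of the encoded protein separated them. Each protein-coding gene was classed from the hydropathy of the codons of 1 annotated transcript. Genes with 12 codons in a row of mean hydropathy 2.0 or more within the first 30, the place of a signal peptide, formed the first class. Genes with 19 codons of mean 1.6 or more further in, as in a membrane-spanning stretch, formed the second, genes with such a stretch followed by fewer than 60 codons the third, and genes without one the fourth. These classes were made after the values had been seen. Mean UMIs per cell in cluster 6 were 37.9% of those in the 8 clusters for genes with a hydrophobic start (ratio 0.379 ± 0.049, SD, n = 6), 22.9% for a stretch further in, 12.9% for a stretch near the end, and 7.56% for genes without one (ratio 0.0756 ± 0.0125). Long non-coding RNAs stood at 28.3%. Over cluster 10, the same ratio was 1.6 ± 0.25 for mitochondrial genes, 3.35 ± 0.57 for a hydrophobic start, 1.72 ± 0.15 for a stretch further in, 0.822 ± 0.124 without a stretch and 0.702 ± 0.047 for long non-coding RNAs. The ratios of the first class ran from 0.308 to 0.438 over libraries and those of genes without a stretch from 0.0602 to 0.0939, with no overlap.

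**Figure D2:**
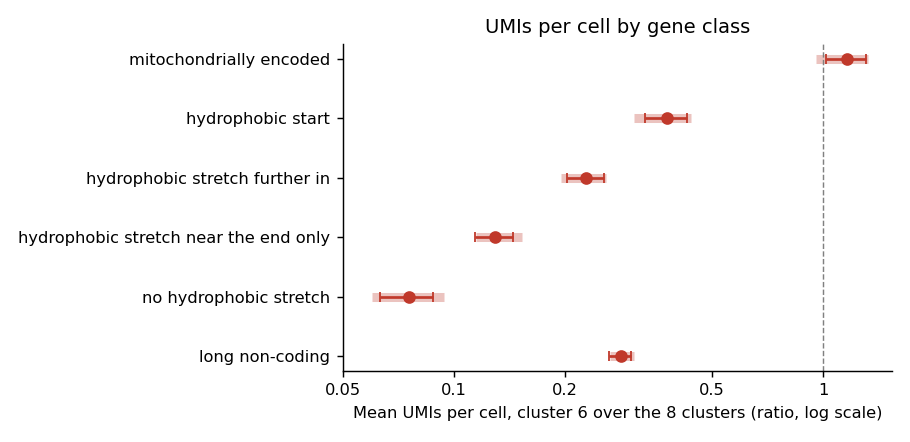
Mean UMIs per cell in cluster 6 over that in the 8 clusters, by gene class, on a log axis; points are means of the ratio over 6 libraries, thin bars the SD and broad bars the range. Mitochondrially encoded genes sit near 1, at 1.16, and genes without a hydrophobic stretch lowest, at 0.0756.

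The coding starts of 9 genes illustrate the class rule. The first 30 codons are shown, 5′ to 3′ on the coding strand, from GENCODE M21 on build GRCm38, with the 12 codons of highest mean hydropathy in capitals where they reach the minimum of the class. The first 6 genes were chosen as well-known members with a hydrophobic start that were higher in cluster 6, and the last 3 as abundant genes without a stretch that were lower, so they show what the rule reads and are no evidence for it. Pdia6 encodes an ER disulfide isomerase, Havcr2 and Lag3 inhibitory receptors, Gzmb a secreted granzyme, Cd3g a T cell receptor subunit and B2m the light chain of MHC class I.
Pdia6: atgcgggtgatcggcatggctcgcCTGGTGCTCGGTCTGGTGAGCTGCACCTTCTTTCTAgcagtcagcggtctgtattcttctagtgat
Havcr2: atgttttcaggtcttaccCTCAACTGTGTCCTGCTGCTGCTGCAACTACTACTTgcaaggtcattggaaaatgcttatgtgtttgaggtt
Lag3: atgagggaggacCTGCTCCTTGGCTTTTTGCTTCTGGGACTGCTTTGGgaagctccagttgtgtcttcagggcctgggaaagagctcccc
Gzmb: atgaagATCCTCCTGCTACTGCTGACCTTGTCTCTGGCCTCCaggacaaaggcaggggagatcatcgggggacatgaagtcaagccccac
Cd3g: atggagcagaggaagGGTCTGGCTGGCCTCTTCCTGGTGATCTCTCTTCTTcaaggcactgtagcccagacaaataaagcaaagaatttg
B2m: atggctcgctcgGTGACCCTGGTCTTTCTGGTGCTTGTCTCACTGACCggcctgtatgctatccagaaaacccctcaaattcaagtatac
Pfn1: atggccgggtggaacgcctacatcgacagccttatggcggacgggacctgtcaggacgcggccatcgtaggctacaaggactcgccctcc
Cfl1: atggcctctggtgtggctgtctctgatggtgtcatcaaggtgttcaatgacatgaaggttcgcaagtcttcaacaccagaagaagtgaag
Gapdh: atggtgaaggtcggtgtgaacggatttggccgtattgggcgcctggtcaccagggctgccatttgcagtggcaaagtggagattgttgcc
The highest 12-codon mean on the Kyte and Doolittle scale was 2.48 in Pdia6, 2.51 in Havcr2, 2.63 in Lag3, 2.55 in Gzmb, 2.56 in Cd3g and 2.72 in B2m, against 0.575 in Pfn1, 1.41 in Cfl1 and 1.39 in Gapdh. The genes lie at chr12:17266545-17284770 (Pdia6, plus strand), chr11:46454935-46481255 (Havcr2, plus), chr6:124904361-124911705 (Lag3, minus), chr14:56258838-56262260 (Gzmb, minus), chr9:44969572-44980431 (Cd3g, minus), chr2:122147686-122153083 (B2m, plus), chr11:70651850-70654644 (Pfn1, minus), chr19:5490455-5495201 (Cfl1, plus) and chr6:125161715-125166467 (Gapdh, minus).

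Gene by gene, a gene was counted as higher or lower in cluster 6 when its mean log2 difference of CPM, with 5 CPM added, was at least 1 in size with the same sign in all 6 libraries, among genes with at least 20 CPM on either side. This is a description and carries no test, since the clusters were made from the same expression values. Of 6465 genes against the 8 clusters, 1483 were higher (22.9%) and 754 were lower (11.7%), and the median difference over all of them was 0.22. With the mitochondrial genes kept in the totals that median was -0.27 and the split was 684 higher and 1417 lower, and with TMM factors it was -0.18 with 873 higher and 1380 lower, so 66.3% of the counted genes were higher in the first case and 32.6% and 38.7% in the others. Levels are therefore read against the shift of all genes. Of 709 genes with a hydrophobic start, 532 were higher and 8 lower, with a median difference of 1.39 and library medians of 1.32 to 1.55. Of 1157 genes with a stretch further in, 562 were higher and 13 lower (median 0.97). Of 4153 genes without a stretch, 285 were higher and 655 lower (median -0.15). With mitochondrial genes kept in the totals and with TMM factors, the counts were 315 and 381 higher and 14 and 13 lower with a hydrophobic start, 260 and 340 higher and 44 and 38 lower further in, and 58 and 86 higher and 1236 and 1174 lower without a stretch. Against each of the 8 clusters alone the median of the first class ran from 1.34 against cluster 0 to 1.71 against cluster 7, and against cluster 10 it was 1.07.

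The relation to hydropathy was flat at low values and rose by degrees above 1.5. In bins of the highest mean hydropathy over the first 30 codons, medians were flat between 0.03 and 0.13 up to a value of 1.5, then 0.52 from 1.5 to 2, 1.26 from 2 to 2.5, and 1.46 at 2.5 or more, where 79.3% of genes were counted as higher and 0.266% as lower. Transcript length made a further split among genes without a stretch. Their median was -1.20 for transcripts under 1000 bases, -0.68 from 1000 to under 2000, -0.20 from 2000 to under 3000, 0.13 from 3000 to under 5000 and 0.49 at 5000 or more, while genes with a hydrophobic start kept medians of 1.16 to 1.45 over the same lengths. The codon rule is rough. It placed the secreted proteins Gzmk, Ctss and Fgl2 among genes without a stretch, Cd8a among those with a stretch near the end, and the cytosolic enzyme Ldha among those with a stretch further in.

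**Figure D3:**
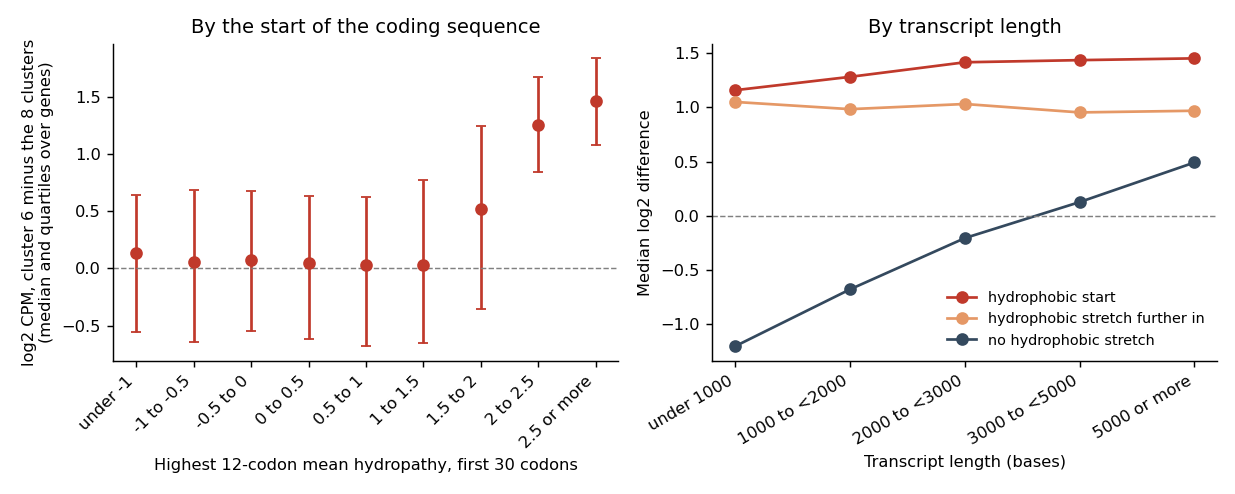
Left, median and quartiles over genes of the log2 difference of CPM, cluster 6 minus the 8 clusters, by the highest 12-codon mean hydropathy in the first 30 codons. Right, median difference by transcript length in bases for 3 classes; medians climb from -1.20 to 0.49 without a stretch and stay at 1.16 to 1.45 with a hydrophobic start.

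Other cells with a high mitochondrial share or few UMIs had smaller median differences for genes with a hydrophobic start. In the 93 cells of the 8 clusters with at least 20% mitochondrial UMIs, the median difference from their clusters was 0.03 for genes with a hydrophobic start. In their 519 cells with under 2500 UMIs it was 0.00. Both values are for that class alone and are not set against the shift of all genes. Cluster 10, with a median mitochondrial share of 20.3% over its cells, stood at 0.31 for genes with a hydrophobic start, 0.52 for a stretch further in, 0.17 without one and 0.81 for long non-coding RNAs. Inside cluster 6, the 83 cells with under 10% mitochondrial UMIs stood at -0.05 for genes with a hydrophobic start and at a median of 7.79% for that class's share of UMIs outside the mitochondrial genes. The same share was 22.5% at 10% to 20% mitochondrial UMIs, 25.6% at 20% to 30%, 26.0% at 30% to 40% and 22.6% at 40% or more. The cells under 10% also differed in ribosomal protein share, with a median of 22.4%, against 8.39% to 10.1% in the other bins of the cluster. These 83 cells held a median of 1575 UMIs and were split over the libraries. The gene medians of these cells and of the 93 cells above therefore rest on few counts per gene, and depth limits both.

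By role, the T cell receptor and CD8 complex was the first group to stand out. Of its 17 tested genes, 11 were higher in cluster 6 and 0 lower, with a median of 1.52. Ptprc, the phosphatase CD45, had 4740, 5272 and 6528 CPM (lowest, median and highest library) in cluster 6, against 1012, 1098 and 1283 CPM in the 8 clusters, a log2 difference of 2.26 ± 0.10 (SD, n = 6). Cd3g had 4042, 4836 and 6249 CPM in cluster 6, against 1120, 1346 and 1704 CPM in the 8 clusters (1.87 ± 0.12). The kinase and adaptor genes of the same pathway, whose products have no such stretch, overlapped. Lck, the kinase bound to CD8, had medians of 426 CPM in cluster 6 and 349 CPM in the 8 clusters (0.28 ± 0.23), Zap70 differed by -0.11 and Skap1 by -0.18. Over the list, the median was 1.65 for members with a hydrophobic start or a stretch further in and 0.08 for members without one.

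Inhibitory receptors and other exhaustion genes divided in the same way. Of 22 tested, 10 were higher and 2 lower, and the median was 1.83 for the 12 with a hydrophobic start or a stretch further in and -0.21 for the 8 without one. Lag3 had 1460, 2215 and 3352 CPM in cluster 6, against 275, 412 and 592 CPM in the 8 clusters (2.4 ± 0.11). Ctla4, the CD28-family inhibitory receptor, differed by 2.15, Cxcr6, a chemokine receptor of tumour T cells, by 2.03, and Entpd1, the ectoenzyme CD39, by 1.67. Not all receptors rose past the line: Tigit, another inhibitory receptor gene, differed by 0.39. Of the 12 members with a hydrophobic start or a stretch further in, 9 were higher. The 2 lower members were transcription regulators. Batf had 24.0, 34.6 and 46.1 CPM in cluster 6, against 79.4, 85.9 and 92.6 CPM in the 8 clusters (-1.22 ± 0.25), and Id2 differed by -1.03. The regulator genes Tox (0.53) and Prdm1 (-0.29) were on neither side of the line.

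Of 20 effector genes tested, 17 were higher and 1 lower. Gzmb had 13442, 19464 and 32700 CPM in cluster 6, against 3430, 4837 and 8053 CPM in the 8 clusters (2.06 ± 0.17). Prf1, which encodes perforin, had 947, 1300 and 1866 CPM in cluster 6, against 182, 266 and 384 CPM in the 8 clusters (2.25 ± 0.11), and Ifng differed by 2.11. Ccl5, a short chemokine message with a hydrophobic start, was the lower one, at 1140, 1935 and 3203 CPM in cluster 6, against 3359, 4343 and 4593 CPM in the 8 clusters (-1.14 ± 0.38).

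The genes with the largest differences against the 8 clusters were Spp1 (3.18 ± 1.19), which encodes osteopontin, and the neighbouring granzyme genes Gzmd (3.13), Gzme (2.88), Gzmf (2.86) and Gzmg (2.68 ± 2.08) on chromosome 14. Those granzymes are near-identical copies, and how the counting split their reads is not given in the sources used here. Female library 6 stood apart for several of them. Spp1 had 126 to 163 CPM in the other 5 libraries of cluster 6 and 1507 CPM in library 6, while Gzmg had 7.99 CPM in the lowest, a median of 54.0 and 5770 CPM in library 6, against 2.49 to 94.0 CPM in the 8 clusters, with overlap. Leading genes with a small spread were Pdia6 at 692, 815 and 1000 CPM in cluster 6, against 115, 122 and 154 CPM in the 8 clusters (2.63 ± 0.26), then Mid1 (2.48), Cyp51 (2.47), Lman1 (2.46), Ccdc47 (2.44) and Rpn1 (2.43). Lman1 encodes an ER to Golgi cargo receptor, Ccdc47 an ER protein of the multipass translocon and Mid1 a microtubule-bound ubiquitin ligase, the only one of the 12 leading genes in the class without a stretch.

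**Figure D4:**
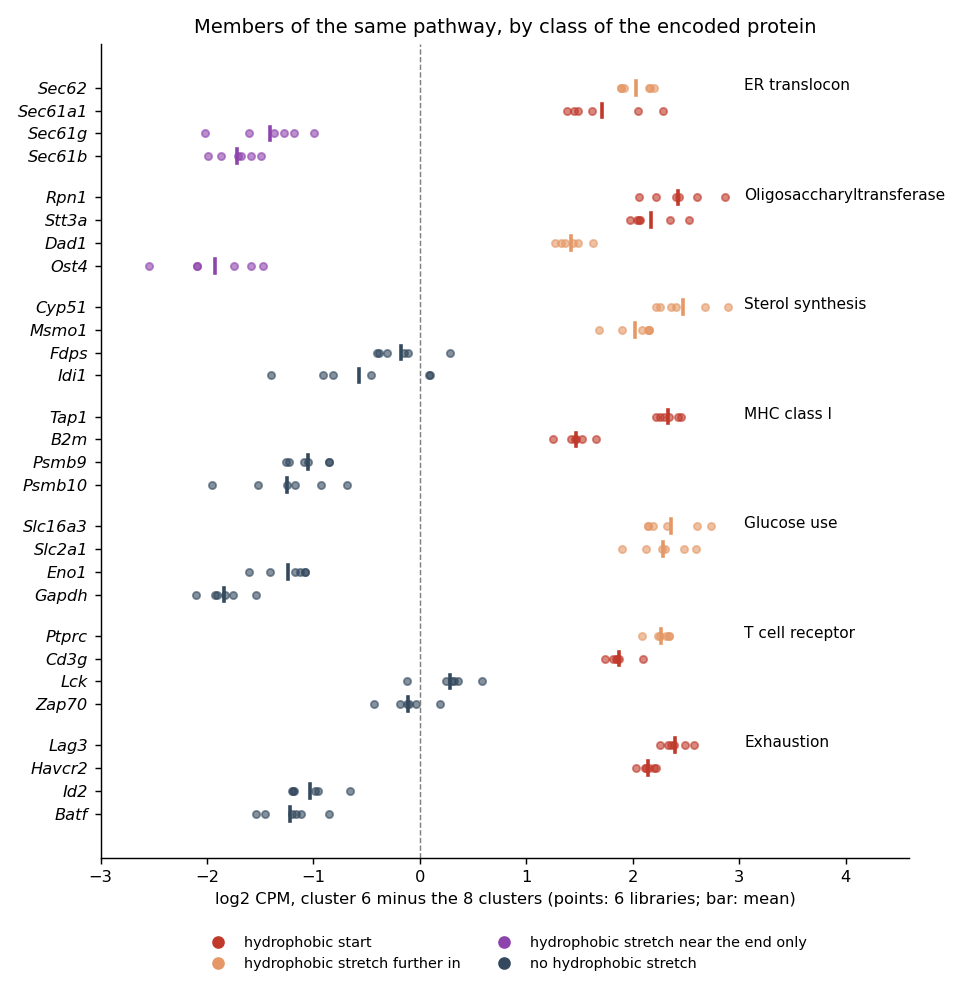
Log2 difference of CPM, cluster 6 minus the 8 clusters, in each of the 6 libraries (points) with the mean (bar), for 28 genes in 7 groups, coloured by class of the encoded protein. Within a group, the members shown with a hydrophobic start or a stretch further in lie to the right of 0 and the others near or left of it. The genes shown were chosen after their values had been seen, so the figure illustrates the division and is no evidence for it. Of the 7 glycolysis genes with a hydrophobic start or a stretch further in, 3 were higher.

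The ER's own machinery was examined in 4 lists added after the values had been seen. Of 17 genes of the translocon, its receptor and the signal peptidase, 15 were higher and 2 lower. Sec61a1, the channel itself, had 260, 304 and 624 CPM in cluster 6, against 93.4, 100 and 124 CPM in the 8 clusters (1.71 ± 0.37). Sec61b and Sec61g, small channel subunits anchored by their tails after synthesis, were the 2 lower ones. Sec61b had 139, 163 and 186 CPM in cluster 6, against 517, 553 and 569 CPM in the 8 clusters (-1.72 ± 0.18), and Sec61g differed by -1.41. Of 11 oligosaccharyltransferase genes, which attach sugars to proteins in the ER, 9 were higher and 1 lower. Rpn1 had 316, 416 and 625 CPM in cluster 6, against 69.5, 76.5 and 96.7 CPM in the 8 clusters, while Ost4, a very short subunit, had 31.2, 52.5 and 61.0 CPM in cluster 6, against 177, 200 and 235 CPM in the 8 clusters (-1.92 ± 0.40). Neither complex was higher in all of its members.

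Of 15 sterol synthesis genes, 10 were higher and 0 lower. Cyp51, the lanosterol demethylase and an ER membrane protein, had 198, 237 and 386 CPM in cluster 6, against 33.6, 41.4 and 48.4 CPM in the 8 clusters (2.47 ± 0.26). The membrane enzymes Msmo1 (2.02) and Sqle (1.92) were higher too. The soluble enzymes of the pathway, Hmgcs1 (-0.15), Fdps (-0.18) and Idi1 (-0.57), were within the 2-fold line. The proteasome, a cytosolic complex, had 0 of 20 higher and 11 lower, with Psma2 at -1.58.

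ER stress genes followed the class of their product as well. Of 15 tested genes of the integrated stress response and ER stress, 8 were higher and 1 lower. Hspa5, the ER chaperone BiP, had 2071, 2380 and 2953 CPM in cluster 6, against 440, 484 and 538 CPM in the 8 clusters (2.30 ± 0.17), and Hsp90b1 (2.22), Pdia4 (2.01) and Xbp1 (1.75) were higher. The regulators Atf4 (-0.44) and Ddit3 (-0.03) were within the 2-fold line. Whether that response was active was not tested. The median of the list was 1.75 for members with a hydrophobic start or a stretch further in and -0.56 for members without one. Antigen presentation by MHC class I had 11 of 15 genes higher and 3 lower. Tap1, a subunit of the peptide transporter, had 874, 1102 and 1214 CPM in cluster 6, against 183, 215 and 232 CPM in the 8 clusters (2.33 ± 0.09), Tap2 differed by 2.39 and H2-K1 by 2.18. The 3 lower genes were the soluble immunoproteasome subunits, Psmb8 (-1.11), Psmb9 (-1.05) and Psmb10 (-1.25).

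Glucose use divided less clearly. Of 16 glycolysis genes, 3 were higher and 5 lower, and the median was 0.34 for the 7 with a hydrophobic start or a stretch further in, of which 3 were higher, and -0.77 for the 8 without one. The 3 higher ones were membrane transporters, namely Slc16a3 for lactate (2.36 ± 0.26) and Slc2a1 (2.28 ± 0.25) and Slc2a3 (2.06 ± 0.19) for glucose. Among the lower ones, Gapdh had 737, 938 and 1098 CPM in cluster 6, against 2773, 3296 and 3558 CPM in the 8 clusters (-1.84 ± 0.19), and Pgk1 (-1.31), Eno1 (-1.24) and Aldoa (-1.20) were glycolytic enzymes of the cytosol. The pathway as a list had a median of -0.43, below the shift of all genes.

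Of the 655 lower genes without a stretch, 253 had transcripts under 1000 bases and 273 from 1000 to under 2000 bases. Of 44 cytoplasmic ribosomal protein genes, 42 were lower and 0 higher (median -1.47), led by Rplp0 at 991, 1487 and 2092 CPM in cluster 6, against 4625, 4789 and 5459 CPM in the 8 clusters. As a share of UMIs outside the mitochondrial genes, ribosomal protein genes made up 8.56 ± 1.44% per cell in cluster 6 (mean and SD of 6 library medians), against 18.4% in cluster 10 and 28.0% to 45.1% in the others. Of 40 nuclear genes of the respiratory chain, 28 were lower and 1 higher (median -1.27), in contrast to the 13 mitochondrial ones. Cox7b (-1.89), Cox6b1 (-1.76), Atp5g1 (-1.75) and Cox5b (-1.74) were among the lower genes. The higher one, Ndufa13, a complex I subunit, had 1071, 1125 and 1635 CPM in cluster 6, against 369, 410 and 429 CPM in the 8 clusters (1.58 ± 0.18). Of 26 abundant cytoskeletal and cytosolic genes, 17 were lower and 0 higher. Pfn1, which encodes the actin-binding protein profilin, had 401, 606 and 727 CPM in cluster 6, against 2318, 2460 and 2758 CPM in the 8 clusters (-2.08 ± 0.30). The other leading lower genes were Cfl1 (-2.0), Arhgdib (-1.95), Ost4, Cox7b, Nhp2 (-1.86), Gapdh, Nme1 (-1.83), Myl12a (-1.83), Rrp15 (-1.81), Snrpd2 (-1.78) and Tmsb4x (-1.77).

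Among long non-coding RNAs of the list kept for nuclear ones, 4 of 8 tested were higher and 1 lower. Malat1 had 18563, 23211 and 24137 CPM in cluster 6, against 8352, 8834 and 9588 CPM in the 8 clusters (1.34 ± 0.12), Neat1, which builds paraspeckles, differed by 1.75 and Kcnq1ot1 by 1.95. Snhg6, a host of a small nucleolar RNA, was lower (-1.17). Xist, the nuclear RNA that coats the silent X chromosome, had 4503 ± 603 CPM in cluster 6 of the 3 female libraries, against 721 ± 35.0 CPM in the 8 clusters of the same libraries, 6.18-fold higher. Against cluster 10 of these libraries, at 2637 ± 505 CPM, Xist was 1.72-fold higher. The list as a whole was not: over all 6 libraries, 0 of 8 tested were higher than in cluster 10 and 1 was lower (median -0.31). Tsix overlaps it on the other strand, and whether the counting used strand is not given in the sources used here.

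Lists for other kinds of stress and cell death varied, where 22.9% of all 6465 genes were higher and 11.7% lower. Of 15 metallothionein and oxidative stress genes, 0 were higher and 5 lower (median -0.79), and 10 and 11 were lower with mitochondrial genes kept in the totals and with TMM factors. Of 10 hypoxia genes, 2 were higher and 3 lower. Of 18 apoptosis regulators, 2 were higher, Birc2 (1.34) and Bcl2 (1.32), and 1 lower, Bad (-1.18). That list's median was 0.20, and it was below 0 with mitochondrial genes kept in the totals. Of 16 immediate early genes, which respond to tissue dissociation, 1 was higher, Fosb (1.59), and 0 lower. Heat shock genes had 1 of 11 higher, which was Hspa5, and 1 lower, and p53 target genes 1 of 10 higher and 0 lower. Interferon-stimulated genes had 1 of 20 higher and 8 lower.

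Against the terminally exhausted-like clusters 0 and 8 alone, 1599 of 6404 genes were higher (25.0%) and 680 lower (10.6%), with 37.6% of the counted genes higher when mitochondrial genes were kept in the totals and 37.0% with TMM factors, instead of 70.2%. The classes held their order, with medians of 1.33 for a hydrophobic start, 0.99 for a stretch further in and -0.02 without one. The leading genes, however, were those of cell division. Mki67, a marker of cycling cells, had 568 ± 56.4 CPM in cluster 6 and differed by 4.56 from clusters 0 and 8, Cit by 4.52, Casc5 by 4.51, Aspm by 4.26, Top2a by 4.25 and Cenpf by 4.25. Of 27 proliferation genes, 21 were higher and 0 lower, with a median of 2.38. Against all 8 clusters, which hold the proliferating clusters 3 and 5, 2 of 27 were higher, Mki67 (1.5) and Top2a (1.14), and 1 lower, Stmn1 (-1.20), a short cytosolic message. Leading lower genes against clusters 0 and 8 were Aldoc (-2.39), Gapdh (-2.16), Pfn1 (-2.13), Bnip3 (-2.07), Arhgdib (-2.06) and Tmsb4x (-2.05).

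Against cluster 10, the other cluster with few UMIs, 879 of 6683 genes were higher in cluster 6 (13.2%) and 294 lower (4.4%), and 126 were lower with TMM factors. Its class medians were 1.07 for a hydrophobic start, 0.31 for a stretch further in, -0.32 without one and -0.31 for long non-coding RNAs. The leading genes were effector genes, namely Gzmd (4.66), Gzmf (4.65), Ccl1 (4.43), Gzmc (4.12), Gzme (4.10) and Ifng (3.89), and 17 of 20 effector genes were higher with 1 lower. Leading lower genes were Klra6 (-2.56), Slfn1 (-1.86), Tnfaip8l2 (-1.84), Wdr95 (-1.77), Use1 (-1.71) and Ifi27l2a (-1.71). Of the exhaustion list, 11 of 22 were higher than in cluster 10 and 1 lower, and of the proliferation list 15 of 27 were higher and 0 lower.

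Detection in single cells was compared after each cell was thinned to 1000 UMIs outside the mitochondrial genes, which left 1339 of the 2034 cells of cluster 6 and left out 695 shallower ones. Pdcd1 was detected in 64.1 ± 4.4% of thinned cluster 6 cells, against 37.8 ± 4.6% of cells of clusters 0 and 8 and 4.56 ± 2.1% of cells of cluster 7, a naive or central memory-like cluster (SD, n = 6 libraries). Before thinning the shares were 68.9%, 88.9% and 15.3%, at median depths of 1742, 10146 and 7465 UMIs. Mki67 was detected in 27.6 ± 5.8% of cluster 6, against 31.3 ± 1.8% of clusters 3 and 5, 1.76 ± 0.60% of clusters 0 and 8 and 1.20 ± 1.1% of cluster 7, and the unthinned shares were 27.1%, 83.9%, 16.5% and 4.93%. Lyz2, a myeloid gene that T cells should lack, was detected in 1.04% of cluster 6 cells after thinning and 1.5% before. Gapdh was detected in 51.0% of thinned cluster 6 cells, against 95.9% of clusters 0 and 8. How doublets were treated before deposit is not given in the sources used here, and none were removed, while 26 cluster 6 cells were above the median UMIs of their library.

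Which other cluster a cell resembled depended on the genes used. Each thinned cluster 6 cell was set against the mean profile of every other cluster. With all genes outside the mitochondrial ones, 67.6 ± 6.2% of cluster 6 cells were most like cluster 10 and 17.1 ± 4.9% most like cluster 0 or 8. With only genes that have a hydrophobic start or a stretch further in, 22 ± 6.6% were most like cluster 10, 45.8 ± 10.5% most like cluster 0 or 8, 18 ± 4.4% most like the proliferating-like clusters 3 or 5, and 13.6 ± 5.5% most like clusters 1, 4, 7 or 9. With only genes without a stretch, 85.9 ± 6.0% were most like cluster 10 and 1.37 ± 1.48% most like cluster 0 or 8. Cells of clusters 0 and 8 themselves returned to them in 83.6%, 73.1% and 82.4% of cases under the 3 gene sets. Cells of cluster 10 returned to it in 70.8%, 61.6% and 70.5%. With genes without a stretch, cluster 6 cells were thus placed there more often than its own cells. Over 7879 genes, summed profiles correlated with cluster 6 at a Pearson r of 0.810 for cluster 10, 0.801 for cluster 0 and 0.797 for cluster 8, down to 0.724 for cluster 7, where the points are genes that share libraries and depth.

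**Figure D5:**
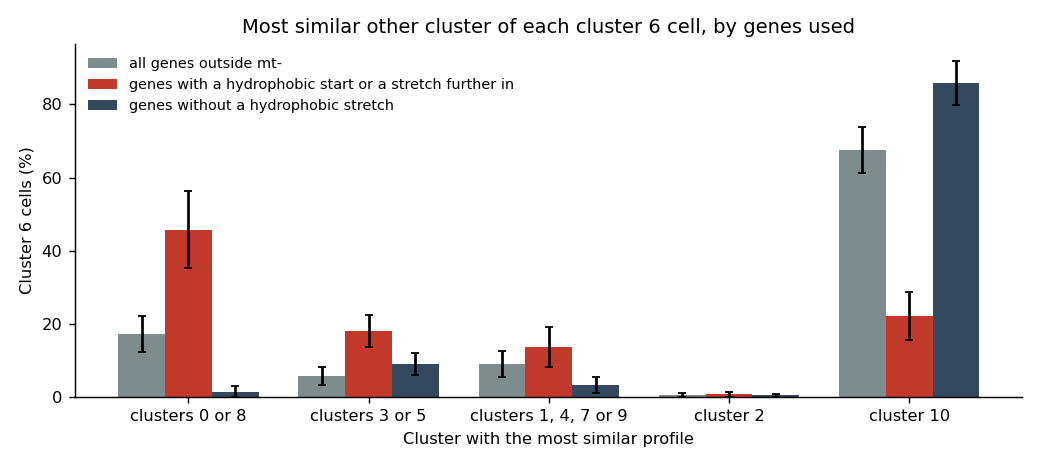
Share of thinned cluster 6 cells whose most similar other cluster was the one named, by the genes used; bars start at 0 and show the mean over 6 libraries, with the SD as error bar. Cluster 10 takes 67.6% with all genes and 85.9% with genes without a hydrophobic stretch, and clusters 0 or 8 take 45.8% with genes that have one.

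Markers of other cell types had a higher median summed level in cluster 6 than in the 8 clusters for each list, and their part in these results was not tested. The 16 myeloid marker genes summed to 242 to 429 CPM in cluster 6, against 79.7 to 127 CPM in the 8 clusters, with Adgre1 at 0 and Ctss, which T cells also express, as the largest part. Of the 7 markers of CD4 and regulatory T cells, Foxp3 was at 0 UMIs in cluster 6, and the sum of 1620 to 2834 CPM, against 395 to 700 CPM in the 8 clusters, was nearly all Ctla4 and Il2ra. The 12 natural killer and innate-like genes summed to 606 to 1405 CPM in cluster 6, against 397 to 653 CPM in the 8 clusters. The 7 genes of MHC class II in the table summed to 79.1 to 238 CPM in cluster 6, against 21.5 to 51.8 CPM. Tumour epithelial genes summed to 29.7 to 86.4 CPM in cluster 6, against 18.8 to 31.1 CPM, with Krt19 and Krt14 at 0. Fibroblast and endothelial genes summed to 23.1 to 106 CPM, against 7.49 to 17.1 CPM, with 5 of 8 at 0. Red blood cell and platelet genes summed to 8.24 to 30.8 CPM in cluster 6, against 0.390 to 4.0 CPM in the 8 clusters, without overlap. B cell genes summed to 4.94 to 24.0 CPM in cluster 6, against 4.31 to 6.72 CPM, and gamma-delta T cell genes to 0.0 to 8.05 CPM, against 0.852 to 4.45 CPM.

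The study set male against female hosts. Cluster 6 made up 8.23%, 6.49% and 5.62% of the cells of male libraries 1, 3 and 4, and 8.26%, 8.44% and 11.5% of the cells of female libraries 2, 5 and 6. The means were 6.78 ± 1.33% in males and 9.40 ± 1.82% in females (SD, n = 3 each), without overlap, though male library 1 and female library 2 differed by less than their 95% exact binomial intervals, 7.56% to 8.94% and 7.29% to 9.33%, which cover counting error alone. The exact two-sided permutation test gave p = 0.1, the smallest that 3 against 3 allows, and edgeR's quasi-likelihood test on cell numbers gave a log2 difference of -0.47 with an adjusted p of 0.119 over the 11 clusters. Differences in cell quality were within the spread of libraries. The mean of library medians was 30.7% mitochondrial UMIs in males and 29.3% in females (exact permutation p = 0.5), 1730.5 UMIs in males and 1844.7 in females (exact p = 0.6), and 739 genes in males and 769 in females (exact p = 0.6). The ribosomal protein share was 9.64 ± 0.72% in males and 7.49 ± 1.08% in females, with no overlap, at an exact p of 0.1 and 0.4 after adjustment over the 4 measures.

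Within cluster 6, edgeR's quasi-likelihood test on summed counts called 6 of 6073 genes as higher (0.0988%) and 5 as lower (0.0823%) in males than in females at an adjusted p under 0.05 (at an unadjusted p under 0.05, 112 and 177). In this test CPM counts all UMIs. Sex-linked genes matched the labels. Of the Y-linked genes, Ddx3y, which encodes an RNA helicase, summed to 198 UMIs in the male and 0 in the female libraries, at least 53.3-fold higher against a floor of 3 counts over the group, and Eif2s3y, Kdm5d and Uty were at least 70.5-, 17.2- and 26.1-fold higher. Xist had 0 UMIs in males and 6304 in females. Of the genes known to escape X inactivation, Kdm6a had 28.2 ± 5.57 CPM in males and 47.4 ± 17.8 CPM in females and was not called (adjusted p = 0.782), nor were Kdm5c (0.949), Eif2s3x (0.949) and Ddx3x (0.99) under the same edgeR test.

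Outside the sex chromosomes, 2 genes rose in males. Tcf7, which encodes the transcription factor TCF-1 of naive and stem-like T cells, had 47.6, 31.1 and 28.9 CPM in male libraries 1, 3 and 4, and 9.11, 4.75 and 14.8 CPM in female libraries 2, 5 and 6. The log2 difference was 2.00 (SE 0.38, edgeR adjusted p = 0.00448), and 54, 17 and 23 UMIs in males and 5, 4 and 9 in females stood behind it. Cxcl10, an interferon-induced chemokine gene, had 31.6 ± 11.6 CPM in males and 10.8 ± 1.49 CPM in females (log2 1.57, SE 0.36, adjusted p = 0.0461). DESeq2 called neither, at adjusted p = 0.084 for Tcf7 and 0.662 for Cxcl10. Tcf7 also lost its edgeR call without male library 1 (adjusted p = 0.236) and without female library 5 (0.102), and Cxcl10 without male library 1 (0.994) or any 1 of the female libraries (0.053 to 0.243). Next by p and not passing were Ccrl2 (adjusted p = 0.266), 1700025G04Rik (0.277) and Chchd10 (0.318) on the male side and AA467197 (0.051) on the female side.

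Lower in males were Ifitm2, Cd244 and Fgl2. Ifitm2, a membrane protein gene induced by interferon, had 294, 354 and 351 CPM in male libraries 1, 3 and 4, and 910, 533 and 743 CPM in female libraries 2, 5 and 6 (log2 -1.16, SE 0.21, edgeR adjusted p = 0.00171). Cd244, which encodes the receptor 2B4, had 30.4 ± 5.74 CPM in males and 75.1 ± 24.1 CPM in females (log2 -1.3, SE 0.26, adjusted p = 0.0074, and 0.063 in DESeq2). Fgl2, a secreted immunoregulatory protein gene of T cells, had 117 ± 22.7 CPM in males and 219 ± 17.5 CPM in females (log2 -0.94, SE 0.19, adjusted p = 0.0128). None of the 3 overlapped between the sexes, but they were picked by p from the same values, so this adds no support. The share of all genes without overlap is not given here. Each call was lost without some library. The edgeR adjusted p was 0.0504 for Ifitm2 without female library 2, 0.053 for Cd244 without female library 6, and 0.123 and 0.361 for Fgl2 without male libraries 1 and 4. Of the exhaustion list, Cd244 was the 1 gene called of 22 tested. Of 20 effector genes, 44 ribosomal protein genes and 17 T cell receptor genes, edgeR called 0. The given markers were not called, with Cd8a at 1414 ± 206 CPM in males and 1748 ± 151 CPM in females (adjusted p = 0.949), Pdcd1 at 1069 ± 126 and 973 ± 136 CPM (0.986) and Havcr2 at 859 ± 115 and 1070 ± 99.4 CPM (0.949), all from edgeR. None of the 13 mitochondrial genes was called either.

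Whether the sex difference of cluster 6 differed from that of clusters 0 and 8 was asked with the interaction in edgeR, with the library as a block. Of 9890 genes, 0 were called as more male in cluster 6 (0.0%) by edgeR and 0 by limma-voom, with 245 in that direction at an unadjusted p under 0.05, and 1 as more female (0.0101%), with 214 in that direction at an unadjusted p under 0.05. It was Gzmg, at 44.1, 5.48 and 16.3 CPM in male libraries and 29.2, 166 and 3943 CPM in female libraries 2, 5 and 6 of cluster 6 (interaction log2 -3.78, SE 0.28, edgeR adjusted p = 1.83e-13). Most of its UMIs came from library 6, and with 1 library left out the interaction ran from -4.17 without male library 4 to -2.48 without male library 1, at -3.81 without library 6, still called each time. Limma-voom gave an adjusted p of 0.992 for it. Next by p were Cxcl2 (2.42) and Rps14 (0.53), both at an adjusted p of 0.522 in edgeR, and neither passed.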

How the data were processed

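Raw counts of UMIs for 15601 genes and 26698 cells were deposited by the authors, with metadata that give in other units the cluster number, the host sex and the genes detected per cell. Per the labels' protocols, libraries came from a 10x Genomics 3' kit, and per the submitters' processing notes Cell Ranger, Seurat and build mm10 were used, without versions. How cells were filtered and doublets treated is not given in the sources used here, and no cells were removed. 0 columns of other series were present.

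Counts were summed per library and cluster. Cluster 6 was set against clusters 0, 1, 3, 4, 5, 7, 8 and 9 together, against clusters 0 and 8, and against cluster 10, without a test, as described beside the results, so that the 5 CPM added understates the change of low genes. Cluster 2, innate-like cells, was left out of the 8. Sex was tested on the sums with edgeR 4.0.16 in R 4.3.3 (quasi-likelihood, filterByExpr, TMM, Benjamini-Hochberg over all genes tested), coded male minus female, with limma 3.58.1 and DESeq2 1.42.0 as alternatives, and shares and cell measures with exact permutation tests over libraries. The edgeR step was tested on simulated data. Python 3.11.15 with numpy 2.4.6, pandas 2.3.3, scipy 1.17.1 and matplotlib 3.10.9 did the rest.

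Gene positions, strands and coding sequences came from GENCODE M21 (GRCm38), in which 15045 of 15601 symbols matched. Named genes are the given markers, the mitochondrial genes, the 12 genes per direction with the largest difference from the 8 clusters and the 6 per direction in the other comparisons, outside unnamed gene models, up to 4 per list, and for sex the label-check genes, up to 10 called per direction and, where fewer than 5 were called, up to 5 by unadjusted p. A few genes that these rules pick are not reported here. Members of a class or list named beyond that were chosen after their values were seen. The cluster, the 35 gene lists and the 4 added lists were chosen with earlier results of these data known. Alternatives were other scalings, filters, pseudocounts, count models, cell subsets, and leaving out each library.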

Additional observations from a re-analysis of the deposited data

Results flagged for a closer look

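Of 125 gene differences between cluster 6 and the 8 clusters examined for a library that stands apart, 8 had one, where chance gives about 1 in 20. Library 2, female, was highest for Cd3g at 2.09 (the other 5 at 1.74 to 1.87), for Cd3d, another T cell receptor subunit gene, at 1.85 (1.45 to 1.56), and for Ndufa13 at 1.92 (1.43 to 1.6). Library 6, female, was highest for Cd247, the zeta chain gene, at 1.22 (0.68 to 0.88), and lowest for Psmb8 at -1.56 (-1.14 to -0.96), Arhgdib at -2.86 (-1.97 to -1.68) and Snrpd2, a splicing factor gene, at -2.41 (-1.72 to -1.55). Library 1, male, was lowest for Ddit3 at -0.76 (-0.12 to 0.22). All are log2 differences of CPM within a library.

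The sex difference of Gzmg, a granzyme gene, differed between cluster 6 and clusters 0 and 8 by the interaction test in edgeR, at -3.78 on the log2 scale (adjusted p = 1.83e-13). It did not in limma-voom (adjusted p = 0.992). Female library 6 of cluster 6 had 3943 CPM of all UMIs, against 29.2 and 166 CPM in female libraries 2 and 5. Within cluster 6 the male minus female difference was -5.81 and within clusters 0 and 8 it was -2.14, and edgeR called neither on its own (adjusted p = 0.949 and 0.999).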

How the results depend on the processing

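With mitochondrial genes kept in the totals and with TMM factors, the genes higher than in the 8 clusters were 684 and 873 and the lower ones 1417 and 1380. Against clusters 0 and 8 they were 771 and 821 higher and 1277 and 1395 lower, and TMM gave 126 lower than cluster 10. The class and list medians that follow were recomputed in ways chosen after seeing the data. TMM gave 1.08 for a hydrophobic start, 0.65 further in, -0.51 near the end and -0.53 without a stretch. Stricter and looser hydropathy minimums gave 1.30 and 0.70 further in and 0.52 and -0.49 near the end, and the stricter one -0.034 without a stretch. The near-end class thus changed sign. Of list medians, those of naive, memory and stem-like genes (0.20) and of apoptosis regulators (0.20) were below 0 under both scalings, at -0.15 and -0.10 and at -0.20 and -0.13. Genes higher in females numbered 14 without a filter and 9 in cells under 30% mitochondrial UMIs. Leaving out each library gave 4 to 15 higher in females and 4 to 8 in males, and interaction counts of 0 to 2 more male and 1 to 5 more female. The count of more female genes was 2 against all cells outside clusters 2, 6 and 10 and 2 with limma-voom. The difference in genes per cell ranged from -56.8 to 2.17, the highest without female library 6. Ddx3x turned to 0.029 in cells under 30% mitochondrial UMIs and lay between -0.28 and 0.11 with a library left out, above 0 without male library 3 or female library 6 and never called. The causes were not tested. Of 125 tracked gene differences, none past the 2-fold line changed sign under any of these settings, while Lck under both scalings and Ddit3, Fdps and Hmgcs1 under others, all within that line, did. No paired analysis was possible because the library numbers carry no replicate number of the labels. Depth limits low genes: the smallest cluster 6 sum held 547322 UMIs, and Tcf7 rested on 4 to 54 UMIs a library.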

Other observations

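Against the 8 clusters, 22.9% of all 6465 genes were higher and 11.7% lower. Of 20 genes of the T cell receptor signal response tested in that comparison, 6 were higher, 1 lower and 13 neither, with a median of -0.09. The higher ones included Tnfrsf4, which encodes OX40, at 2.29 on the log2 scale, Tnfrsf18, which encodes GITR, at 2.11, and Cd69, an early activation antigen, at 1.48. Of 16 naive, memory and stem-like genes, 3 were higher, a smaller share than among all genes, and 0 lower. Among those 3 were Il7r, the interleukin-7 receptor alpha chain, at 1.48 and Slamf6, a receptor kept by progenitor exhausted cells, at 1.14. In the same list Tcf7, the regulator of the same cells, differed by -0.80 with overlap between the groups. Junb, a transcription factor gene of the immediate early list, differed by -0.60.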
